A study of Triticum aestivum with 96 samples.

Results

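The 150 genes described here are those whose transcript level differed most between paired pools of wheat flag leaves collected at the same time, among genes with little daily rhythm and little drift. They were chosen from the 139118 genes of the deposited table in 3 steps. A gene needed a mean scaled count of at least 50 in senescent and in mature libraries, which 20577 genes had. Its fitted 24 h wave had to span less than 0.6 log2 from trough to peak and its slope had to stay under 0.3 log2 per 24 h in both stages, which left 11976 genes. Of these, the 150 with the largest root mean square difference between replicate 1 and replicate 2 over 48 pairs of libraries were taken, and the other 11826 serve as comparison. The size of the replicate difference chose the genes, so it is given as a description and was not tested.

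The series measured RNA of whole flag leaves from bread wheat (Triticum aestivum) of the cultivar Mace by RNA-seq. Senescent leaves had visible chlorophyll loss and mature leaves came from plants at ear emergence. Both stages stood in 1 growth room and came from sowings 28 days apart, so stage and sowing cannot be told apart. Plants grew under 12 h light and 12 h dark until a dawn, called Zeitgeber time 0 (ZT0), after which light and a temperature of 20 °C were constant. Leaves were taken from ZT45 to ZT91 with a 2 h interval, 24 time points in all. Each library held RNA pooled from 2 leaves, and each stage and time point had 2 libraries, which gives 48 senescent and 48 mature libraries. Leaf, plant, RNA extraction and library all change together between the paired libraries of a time point, so their parts in a difference cannot be told apart. In bulk leaf RNA, fewer cells of a type and less RNA per cell cannot be told apart either.

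The flag leaf is the uppermost leaf of the wheat stem and supplies much of the sugar and nitrogen that fill the grain. In senescence it dismantles its chloroplasts and exports the released nutrients, under the control of NAC and other transcription factors. Bread wheat is hexaploid, with A, B and D subgenomes, so most genes have a counterpart on each of 3 related chromosomes. Plants of 1 genotype grown side by side still differ in transcript levels, and in Arabidopsis the genes that vary most between individual plants are known to include many that respond to light, defence and other surroundings. The identifiers of the Mace annotation were found for 0 of 139118 genes in the reference gene table used here, so the genes are given by identifier. The identifier holds the chromosome (3D, for example) and the subgenome. No leaf marker or senescence gene could be looked up for the same reason.

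The libraries rested on an estimated 4789055 to 11831482 reads each. The 100 most abundant genes held 7.90% to 16.8% of the scaled counts in senescent libraries and 12.7% to 21.6% in mature libraries. Replicate 1 of mature leaves at ZT91 stood apart from the rest. Over the 11976 genes, the deviations from the fitted time courses had an SD of 0.65 log2 in that library, against a median of 0.21 over the 96 libraries. Mature ZT45 replicate 2 followed with 0.43. Chosen without ZT45 and ZT91, the list kept 136 of the 150 genes.

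The root mean square difference of the 150 genes ran from 0.587 to 1.53 log2, with a median of 0.72. The other 11826 genes had a median of 0.32 and a highest value of 0.58. TraesMAC3D03G01865210 (0.588) and TraesMAC2A03G00789590 (0.587) stood just inside the limit, and TraesMAC3D03G01848040 and TraesMAC3B03G01756200 (both 0.584) just outside, so the list ends in a continuum and not at a gap. From the reads behind each value, counting alone would give a smaller difference for all 150 genes in each stage. Over both stages together the rule fixed this, since the members' smallest root mean square was 0.587 and their highest counting value 0.280 log2. It does not set the members apart. Most of the other genes exceeded counting too, with a first quartile of 1.46 times the counting value and a lowest of 0.989. The observed root mean square was a median of 3.77 times the counting value for the 150 genes, and 1.67 times for the others. The typical level of the members was near that of the others, with a few far more abundant members. Their mean scaled counts had medians of 96.7 in senescent and 107 in mature libraries, beside 117 and 113 for the others in the same stages.

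Single libraries far from their own time course were common among the members, although the 5 pairs that differed most held 31.8% of the squared difference and the top 10 pairs 51.4%. Of the 150 genes, 147 had at least 1 library that was 2-fold or more above or below its fit, compared with 16.6% of the other genes. For 29 members a library was 4-fold or more away, compared with 0.347% of the others. The members were ranked on differences between these same libraries, which favours both contrasts, so they are descriptions. The farthest library lay below the fit in 107 of 150 members (71.3%) and in 62.4% of the others. Replicate 1 was above replicate 2 in a median of 24 of the 48 pairs, so over the list neither replicate number stood for high or low values. For single members the number ran from 18 to 32 pairs, beside 11 to 36 for the others. Their mean of replicate 1 minus replicate 2 ran from −0.16 to 0.26 log2, beside −0.20 to 0.19 for the others. The highest mean was that of a gene of cluster 2 (described below), with replicate 1 above in 30 of the 48 pairs.

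The members differed mainly between mature pools, and so did the other genes that met the limits. Senescent pairs held 28.2% of their summed squared difference and mature pairs 71.8%. The median root mean square was 0.45 log2 in the 24 senescent pairs and 0.86 in the 24 mature pairs. It was larger in senescent pairs for 26 genes and larger in mature pairs for 124 genes (82.7%). The other genes also differed more in mature pairs, in 10288 of 11826 cases, with 35.2% of their squares in senescent and 64.8% in mature pairs.

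The choice was also made on the pairs of 1 stage and read in the other stage, whose pairs did not enter the ranking. The limits on level, rhythm and slope still used both stages. The 150 genes with the largest difference in senescent pairs had a median of 0.60 log2 in mature pairs, beside 0.35 for all 11976 genes, and 96 of them lay in the highest 10% of genes for mature pairs. The 150 chosen on mature pairs had a median of 0.41 log2 in senescent pairs, beside 0.27 for all, and 98 lay in the highest 10% for senescent pairs. Both choices shared 55 genes. Level was not matched in this comparison.

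**Figure D1:**
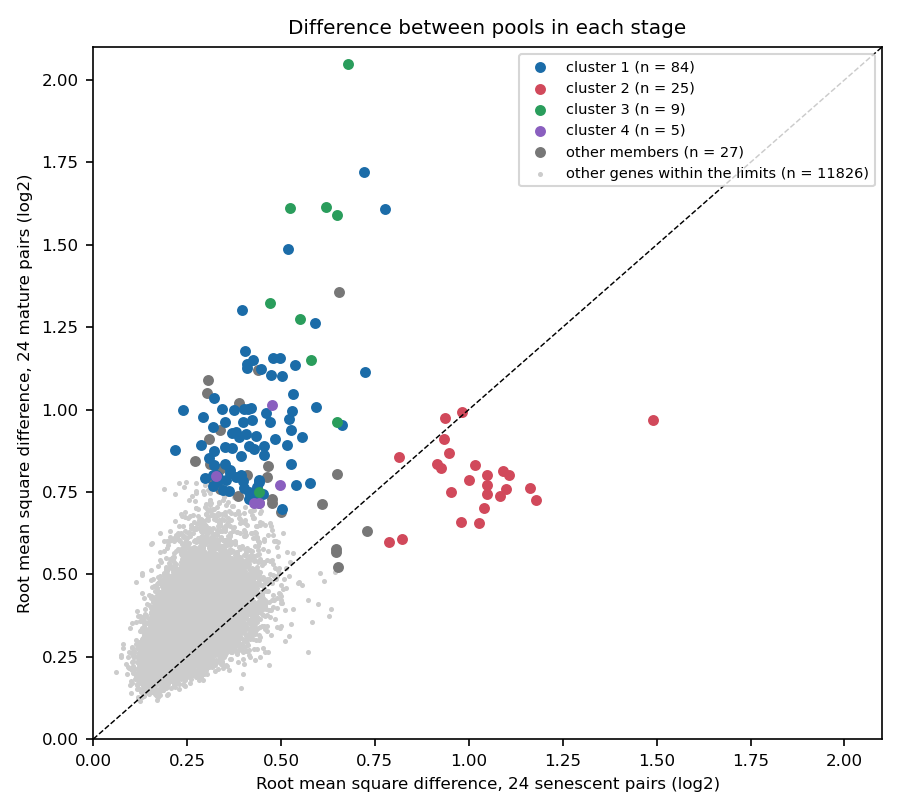
Root mean square difference between paired pools in 24 senescent pairs (x axis, log2) and 24 mature pairs (y axis, log2), 1 point per gene. Most coloured members lie above the dashed line of equal size, while 22 of the 25 genes of cluster 2 lie below it.

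The replicate differences of the members were correlated with each other. Over the 48 pairs, the correlation of the replicate difference between members had a median of 0.28, and 36.3% of 11175 gene pairs had an r over 0.5, compared with 1.35% of gene pairs among the other genes (median 0.00). Genes share libraries, depth and scaling in these correlations, and the members were chosen on the size of the same differences. The members' difference was a median of 3.77 times the counting value, beside 1.67 times for the others. Counting thus weighs more in the r of the others, and the correlations are descriptions. An r under −0.5 was rare, with 1.27% of member pairs and 0.979% of other gene pairs. The first component of the differences carried 39.9% of the members' squares, the next 18.9% and the third 9.37%. For the other genes the first component carried 15.3%. Of the 150 members, 140 had the same sign on the first component, and at mature ZT63 replicate 2 was the higher pool in 134 of 150, at mature ZT65 replicate 1 in 138. The median correlation was 0.14 in senescent pairs and 0.36 in mature pairs, and it was 0.18 without the mature ZT65 pair.

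Clustering of the replicate differences (average linkage, joined down to a correlation of 0.5) gave 20 clusters. The 4 with at least 5 genes held 123 members, smaller clusters held 16 and 11 genes stood alone. Clusters are numbered by size. The clusters were built from the differences described below, so those differences are given without a test.

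**Figure D2:**
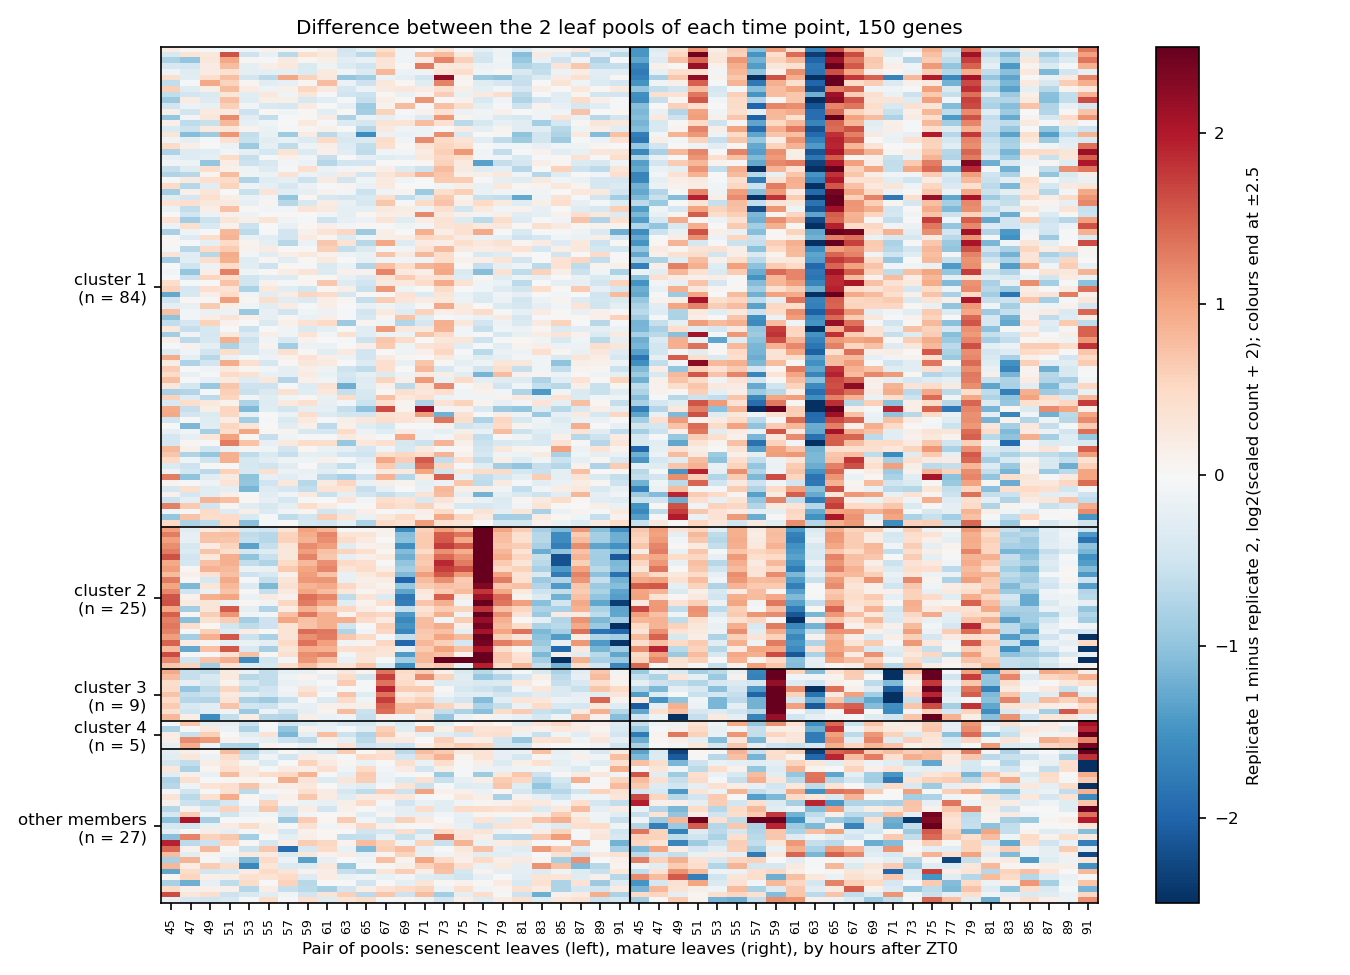
Replicate 1 minus replicate 2 on the log2(scaled count + 2) scale for the 150 genes (rows, grouped by cluster) in 24 senescent pairs (left) and 24 mature pairs (right) by hours after ZT0. Cluster 1 forms stripes in mature pairs such as ZT63 and ZT65, cluster 2 in both stages with the strongest at senescent ZT77, and cluster 3 in mature ZT59, ZT71 and ZT75.

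Cluster 1 held 84 genes, 26 on the A, 28 on the B and 30 on the D subgenome, from all 21 chromosomes. It carried 50.3% of the members' squared difference. Its genes had a median correlation of 0.65 with each other. Senescent pairs held 17.3% of its squares and mature pairs 82.7%, and all 84 genes differed more in mature pairs. The mean scaled counts of its genes had medians of 89.9 in senescent and 110 in mature libraries.

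A few mature time points carried cluster 1. At mature ZT63, replicate 2 was above replicate 1 in 84 of 84 genes, with a mean difference of −1.82 log2 (replicate 1 minus replicate 2). At mature ZT65 the difference was 1.69 log2 and replicate 1 was above in 84 of 84 genes. Mature ZT79 followed with 1.26 log2, ZT45 with −1.16 and ZT57 with −1.13. These 5 pairs held 44.0% of the squares of the cluster. Neighbouring time points could thus have opposite signs, with the low pool labelled replicate 1 at ZT63 and replicate 2 at ZT65.

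Set against the fitted time course of each gene, the averages over the cluster show which library of a pair was unusual. The lowest were mature ZT63 replicate 1 at −1.31 log2 and mature ZT65 replicate 2 at −1.07. Mature ZT75 replicate 2 (−0.89), ZT57 replicate 1 (−0.83) and ZT67 replicate 2 (−0.73) were low as well. The highest were mature ZT45 replicate 2 at 0.98, ZT79 replicate 1 at 0.90 and ZT91 replicate 1 at 0.65. The range was −0.35 to 0.40 over the 48 senescent libraries and −1.31 to 0.98 over the 48 mature ones. In 67 of the 84 genes the lowest library lay farther from the fit than the highest.

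TraesMAC2B03G01037830 on chromosome 2B had the largest difference of cluster 1, with a root mean square of 1.32 log2. Its scaled counts had a lowest value of 16.1, a median of 68.05 and a highest of 121 in senescent libraries. In mature libraries they had a lowest value of 9.91, a median of 111 and a highest of 326. The lowest mature library was ZT63 replicate 1 and the highest ZT79 replicate 1, and the senescent values fall inside the mature range. Its 2 pools of mature ZT63 had 9.91 and 235 scaled counts (replicates 1 and 2), and those of ZT65 had 196 and 31.1.

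TraesMAC1B03G00395380 on 1B followed in this cluster with 1.26 log2. Its scaled counts had a lowest value of 17.0, a median of 57.3 and a highest of 193 in senescent libraries, and 6.19, 44.6 and 194 in the same order in mature libraries. It too was lowest in mature ZT63 replicate 1. TraesMAC2B03G01027150 had the highest mean correlation with the rest of the cluster (0.75) and a smaller difference of 0.64 log2. It had a lowest value of 405, a median of 520 and a highest of 761 in senescent libraries, against 254, 674 and 1661 in mature libraries. The mature lowest and highest values of this gene were ZT63 replicate 1 and ZT91 replicate 1.

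Cluster 1 moved with the make-up of the libraries. Its replicate difference had an r of −0.74 over 48 pairs with that of the log2 total of scaled counts (−0.31 in 24 senescent pairs and −0.79 in 24 mature pairs). With the share of the 100 most abundant genes, r was −0.72 (−0.25 in senescent and −0.79 in mature pairs). With the log2 number of reads it was −0.12. In mature ZT63 replicate 1, the lowest library, the 100 most abundant genes held 20.4% of the scaled counts, and in replicate 2 of that time they held 17.4%. In mature ZT65 replicate 2 that share was 20.3%, and in replicate 1 of that time 16.7%. The part of library make-up in the cluster was not tested. With libraries brought to an equal total, 49 of the 84 genes remained on the list, all in 1 cluster of 104. With libraries scaled by the median gene ratio, 77 of the 84 remained, 72 of them in 1 cluster of 83. With FPKM values, 79 remained, 74 of them in 1 cluster of 79.

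Outside the 150 members, many genes moved with cluster 1. Of 20427 other genes with a mean of at least 50 in both stages, 1751 had an r over 0.5 with its mean difference and 1785 an r under −0.5. Of the genes that moved against it, 17.1% had a mean over 1000 scaled counts, beside 3.90% of all 20427. Of those that moved with it, 59.0% had a rhythm or drift beyond the limits of the rule, beside 42.1% of all. Of those that moved against it, 64.1% did. Among the genes that moved with it, 822 had a wave of at least 0.6 log2 in senescent leaves and 743 in mature leaves. In senescent leaves 40.5% of these peaked in the first 6 h after subjective dawn, beside 13.5% of all genes with such a wave. In mature leaves 35.1% did, beside 12.7%. More of them peaked in the last 6 h before subjective dawn, 45.6% in senescent and 46.97% in mature leaves. Of all genes with such a wave, 47.7% and 50.6% peaked in those last 6 h in the same stages. For genes with an r over 0.5 with cluster 3, the first 6 h held 29.6% in senescent and 42.6% in mature leaves. The last 6 h held 42.1% and 40.6% of them in the same stages. With cluster 4 the first 6 h held 37.0% in senescent and 29.5% in mature leaves, and the last 6 h 47.01% and 56.6%. The 3 genes outside the members most like the first component over 48 pairs were TraesMAC6A03G03260840 (r of 0.94), TraesMAC7A03G04034180 (0.93) and TraesMAC3A03G01309720 (0.93). All 3 were left out by the limits on rhythm or drift.

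Cluster 2 held 25 genes, 2 on the A, 13 on the B and 10 on the D subgenome, and carried 22.6% of the squares. It was the tightest large cluster, with a median correlation of 0.83 and a lowest one of 0.51. Of the 26 members that differed more in senescent pairs, 22 belonged to it. Senescent pairs held 62.5% of its squares and mature pairs 37.5%. Its median root mean square was 1.02 log2 in senescent and 0.79 in mature pairs.

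Its strongest pair was senescent ZT77, where replicate 1 was above replicate 2 in 25 of 25 genes by a mean of 2.49 log2. Mature ZT61 followed with −1.56 log2, with replicate 2 above in 25 of 25, and senescent ZT91 with −1.45, again with 25 of 25. Differences over 1 log2 were also seen at senescent ZT45, ZT59, ZT69, ZT73 and ZT85 and at mature ZT47 and ZT91. The cluster was thus spread over more pairs than cluster 1, with 38.3% of its squares in 5 pairs. Without those 5 pairs, all 25 genes still ranked among the 150 largest and their median correlation was 0.79. Without its own 5 strongest pairs, cluster 1 kept 49 of 84 genes among the 150 largest and had a median correlation of 0.45.

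Among libraries, cluster 2 was highest in senescent ZT77 replicate 1 (1.46 log2 above the fit) and senescent ZT71 replicate 1 (1.08). It was lowest in mature ZT57 replicate 2 (−1.09), mature ZT91 replicate 1 (−1.08) and senescent ZT77 replicate 2 (−1.04). Highs and lows were about equally far from the fit, with ranges of −1.04 to 1.46 in senescent and −1.09 to 0.95 in mature libraries. Senescent ZT77 replicate 1, the highest library, was also the one with the fewest reads of all 96 (4789055). Over the 48 pairs the difference of cluster 2 had an r of −0.19 with the log2 number of reads, 0.07 with the log2 total and 0.05 with the share of the 100 most abundant genes. Its r with the difference of cluster 1 was 0.14.

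Few other genes joined cluster 2. Of 20427, 8 had an r over 0.5 with it and 1 an r under −0.5. Its genes gave short lengths in the deposited tables: the scaled count per FPKM, taken relative to the median gene, was a median of 0.52, beside 0.79 for all members and 1.00 for the other genes that met the limits. It reached from 0.062 to 4.76 within the cluster. Their level spanned a wide range, with mean scaled counts from 50.4 to 3791 in senescent and from 65.2 to 5520 in mature libraries. The observed difference was a median of 5.77 times what counting would give.

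TraesMAC7D03G04304800 on 7D had the largest difference of cluster 2, 1.26 log2. Its scaled counts had a lowest value of 51.0, a median of 415 and a highest of 1065 in senescent libraries, and a lowest of 58.9, a median of 1137 and a highest of 2111 in mature libraries. The pools of senescent ZT77 held 1065 and 85.05 scaled counts (replicates 1 and 2). Its lowest mature value was in ZT91 replicate 1. That library, which also stood apart over all genes, was the one low value among the mature ones, since the next lowest was 555. In senescent libraries the lowest values were 51.0, 67.9, 85.05 and 99.4, each in a different time point.

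TraesMAC3D03G01987490 on 3D had the highest mean correlation with the rest of cluster 2 (0.89) and was among its most abundant genes. It had a lowest value of 1173, a median of 2780 and a highest of 7132 scaled counts in senescent libraries. In mature libraries it had a lowest of 2703, a median of 5358 and a highest of 11329. The senescent extremes were the paired pools of ZT77, 7132 in replicate 1 and 1173 in replicate 2. With counts this high, its difference of 0.83 log2 was 24.9 times the value for counting.

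Cluster 3 held 9 genes and carried 11.3% of the squares, more than its number. It was carried by single low mature libraries. At mature ZT59 replicate 1 was above replicate 2 in 9 of 9 genes by a mean of 3.95 log2, at ZT75 by 2.60 in 9 of 9, and at ZT71 the sign turned, with −2.29 in 9 of 9. The low libraries were mature ZT59 replicate 2 (−2.77 log2 from the fit), ZT75 replicate 2 (−2.23) and ZT71 replicate 1 (−1.74). Senescent ZT67 replicate 2 followed at −1.36. The highest library was at 0.82 in senescent and 1.18 in mature leaves, and all 9 genes lay farther below than above the fit. Without its 5 strongest pairs, 8 of the 9 genes still ranked among the 150 largest.

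TraesMAC5D03G03210040 on 5D had the largest difference of all 150, 1.53 log2. Its scaled counts had a lowest value of 87.4, a median of 337 and a highest of 852 in senescent libraries, and a lowest of 0, a median of 100.4 and a highest of 252 in mature libraries. The paired pools of mature ZT59 held 197 and 0 (replicates 1 and 2), those of ZT75 held 194 and 6.15, and those of ZT71 held 10.02 and 252. It was the only member with a library at 0. Low and ordinary pools were thus collected at the same hour.

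TraesMAC2B03G00827900, TraesMAC5A03G02563370 and TraesMAC5A03G02563420 of cluster 3 also had their lowest mature value in ZT59 replicate 2. Not all genes of the cluster did. TraesMAC5D03G03025300 was lowest in mature ZT71 replicate 1 and TraesMAC5D03G03025280 in mature ZT63 replicate 1. TraesMAC2B03G00827900 on 2B (1.22 log2) had medians of 272 in senescent and 132 in mature libraries, and the pools of mature ZT59 held 346 and 7.47 (replicates 1 and 2). TraesMAC5A03G02563370 on 5A (1.21 log2) had medians of 88.9 in senescent and 50.1 in mature libraries, and those pools held 147 and 1.87. TraesMAC5A03G02563420, with the highest mean correlation in the cluster (0.85), had medians of 231 in senescent and 69.8 in mature libraries, and those pools held 214 and 3.74. The last of these genes is the next listed after TraesMAC5A03G02563370 on 5A, and their differences had an r of 0.94.

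**Figure D3:**
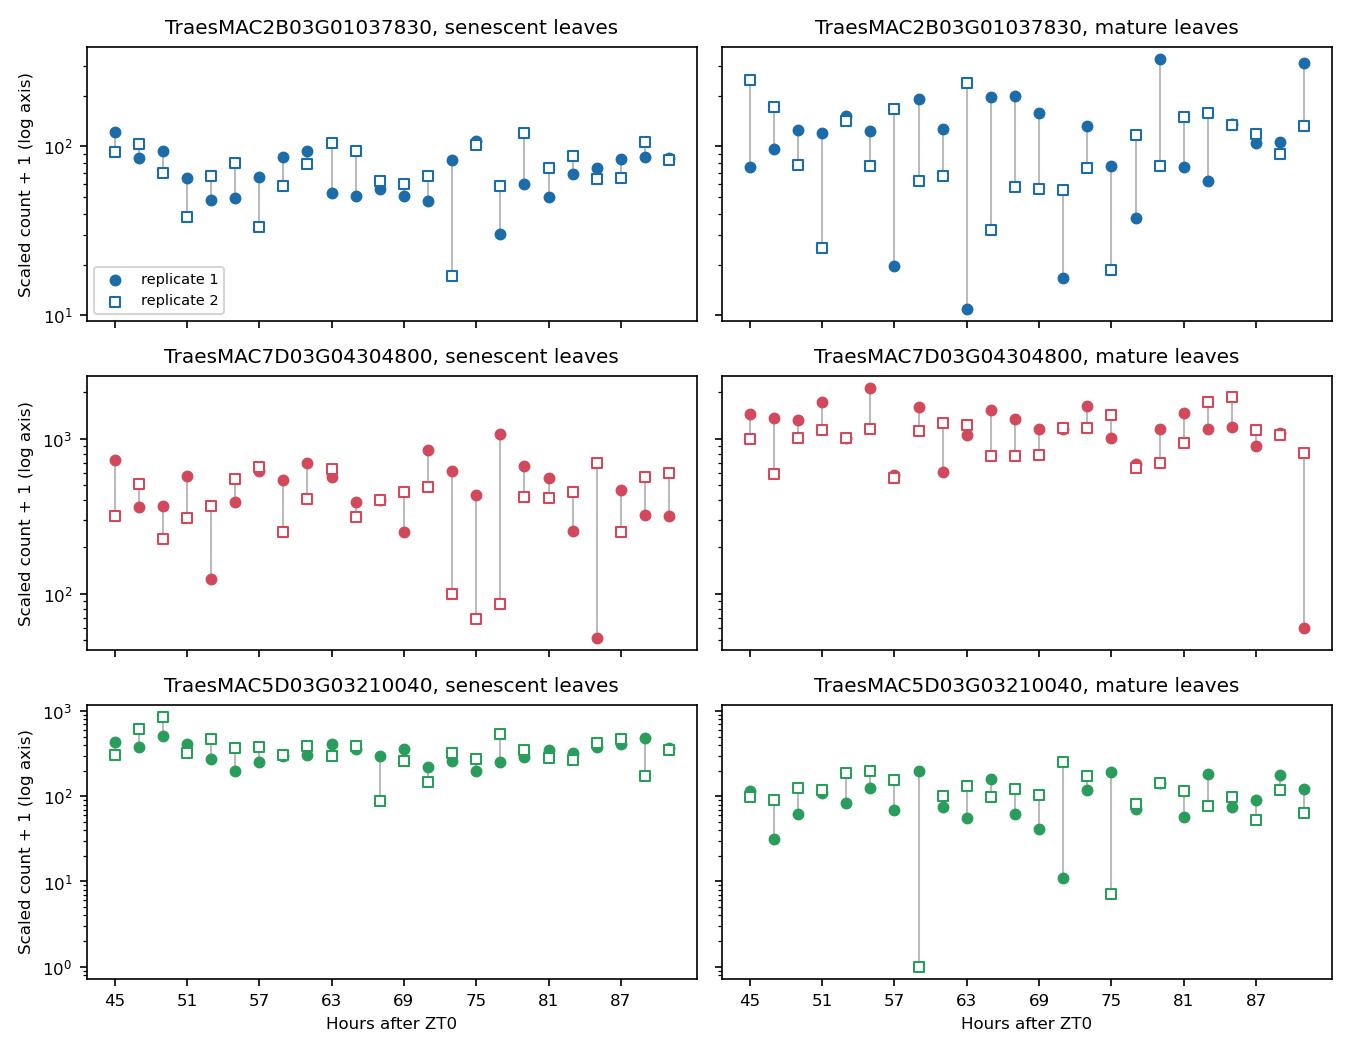
Scaled count + 1 (log axis) of the gene with the largest difference in clusters 1, 2 and 3 by hours after ZT0, in senescent (left) and mature (right) libraries, with lines joining the paired pools. The low points are single libraries, such as mature ZT59 replicate 2 of TraesMAC5D03G03210040 at 0 beside 197 in replicate 1.

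Cluster 4 held 5 genes and 2.27% of the squares, led by mature ZT91, where replicate 1 was above replicate 2 in 5 of 5 genes by a mean of 2.03 log2. That is the library that stood apart over all genes. TraesMAC1B03G00343560 had the highest mean correlation in this cluster (0.69). It had a lowest value of 200.0, a median of 287 and a highest of 368 scaled counts in senescent libraries, against 245, 540 and 2219 in mature libraries. The pools of mature ZT91 held 2219 and 520. The differences of clusters 4 and 1 had an r of 0.25 over 24 senescent pairs and 0.75 over 24 mature pairs. At mature ZT67 they went apart, with −0.20 log2 in cluster 4 and 0.97 in cluster 1.

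**Figure D4:**
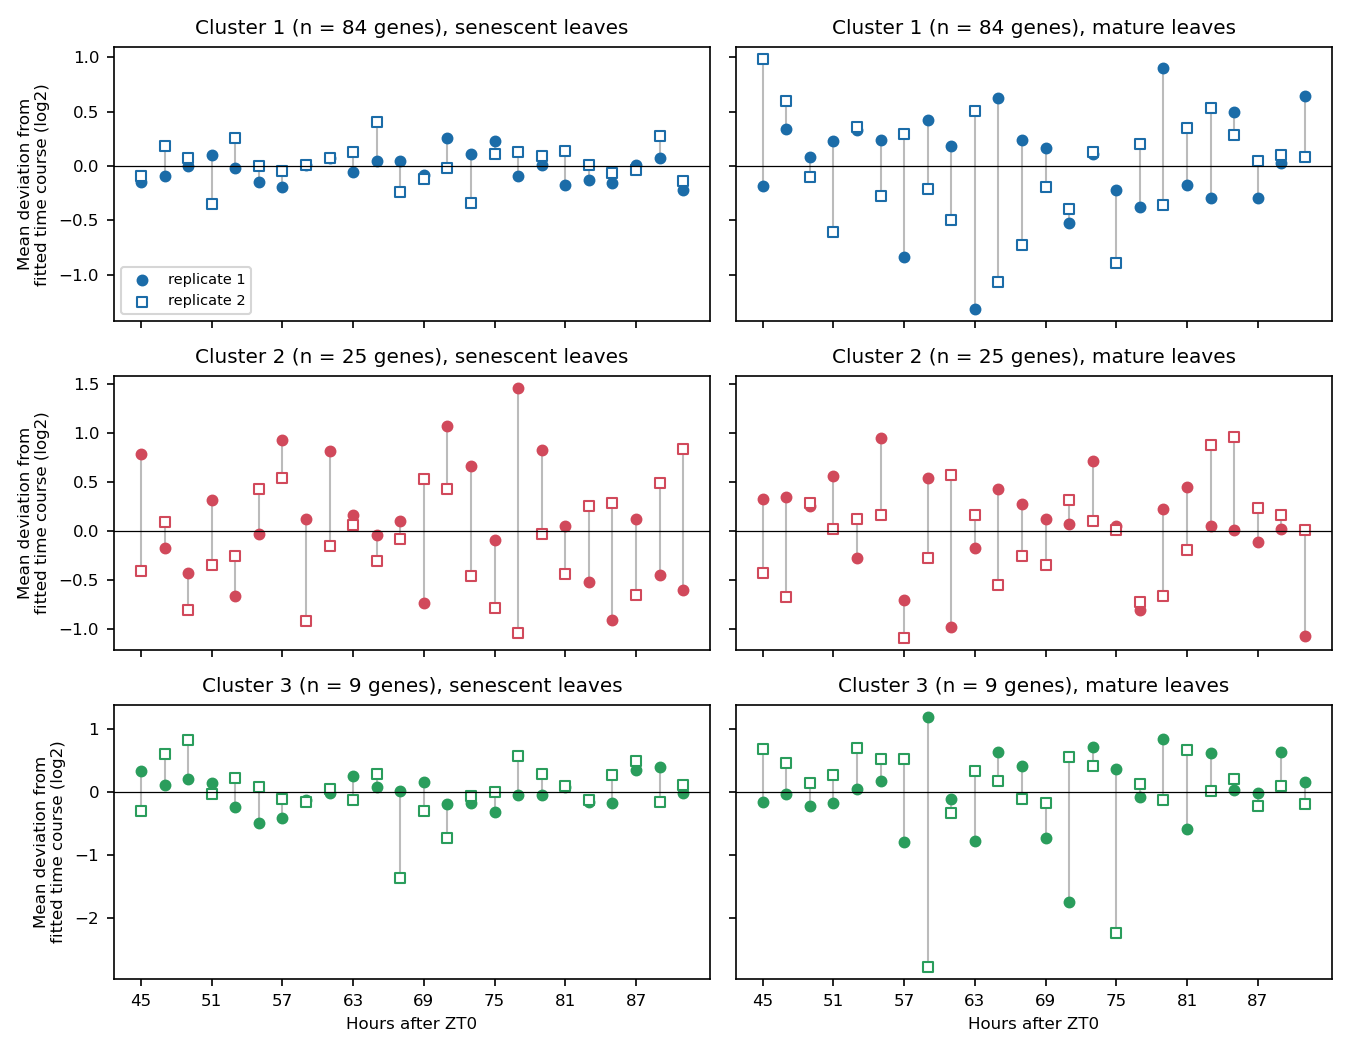
Mean deviation of the genes of clusters 1, 2 and 3 from their fitted time courses (y axis, log2) by hours after ZT0 in each senescent (left) and mature (right) library, with lines joining paired pools. Cluster 1 stays between −0.35 and 0.40 in senescent libraries and spans −1.31 to 0.98 in mature ones, whereas cluster 2 is spread in both stages.

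The departures of paired pools were then set side by side. Within mature pairs, the deviations of replicates 1 and 2 at the same time had an r of −0.35 for cluster 1, 0.01 for cluster 2 and −0.47 for cluster 3 (24 time points each). Within senescent pairs the same r was −0.00 for cluster 1, −0.30 for cluster 2 and 0.10 for cluster 3. Genes and clusters were chosen on the differences of these same pairs, which favours opposite deviations. The r within pairs is therefore a description and was not tested. Between senescent and mature libraries of the same time and number, r ran from −0.14 to 0.13 for clusters 1, 2 and 3 (24 libraries of each stage). The differences of clusters 1 and 3 had an r of 0.47 over 48 pairs, and those of clusters 2 and 3 of 0.02.

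Genes listed next to each other often belonged together. There were 11 pairs of members within 10 positions of each other in the order of the identifiers, formed by 19 genes. In 9 of the 11 both genes fell in the same cluster, and the median r was 0.84. Over all 11175 pairs of members the median r was 0.28. Cluster 1 alone held 84 of the 150 members, so many pairs of members share a cluster in any case. On 4B, TraesMAC4B03G02296570 and TraesMAC4B03G02296580 of cluster 2 had an r of 0.95. On 5D, TraesMAC5D03G03025280, TraesMAC5D03G03025300 and TraesMAC5D03G03025310 formed a run of 3 in cluster 3, with r from 0.74 to 0.86. The pairs within this run are not separate cases. Reads of near-identical neighbouring or counterpart genes could be split or shared by the counting, and the kit does not mark strand, so such pairs may not be separate measurements. The exceptions were a pair on 3D (r of −0.14) and a pair on 7D (−0.32).

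By subgenome, 48 members lay on A, 50 on B and 52 on D. These are shares of 32.0%, 33.3% and 34.7%, beside 33.8%, 33.3% and 32.9% of the 11976 genes that met the limits. As a whole the members were thus spread evenly, and within cluster 2 the A subgenome had 2 of 25.

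The level of the members was then compared between senescent and mature leaves, a contrast that the rule did not use beyond its minimum level in both stages. With limma and Benjamini-Hochberg adjustment over 42428 genes, 54 of 150 members (36.0%) were higher in senescent leaves and 58 (38.7%) were lower. Over all tested genes, 35.2% were higher and 34.6% lower, 69.8% in all, so the members' counts were near that background. With libraries brought to an equal total, 66 members were higher and 35 lower, and the median over all tested genes was then 0.24 log2, beside 0.0050 before. Members differed by larger amounts: their absolute log2 difference had a median of 0.40, beside 0.19 for the other genes that met the limits and 0.26 for all tested genes. A difference of at least 1 log2 was called for 13 members that were higher and 12 that were lower, 16.7% of them. That share was 1.39% of the other genes that met the limits and 9.92% of all tested genes. The median SE was 0.098 log2 for the members and 0.048 for the other genes that met the limits. The part of this wider error in the larger differences was not tested.

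The clusters differed in their counts. In cluster 3, 8 of 9 genes were higher in senescent leaves and 1 was lower, with a median of 1.04 log2, and 8 were higher as well without the 5 pairs that carried the cluster most. In cluster 2, 2 of 25 were higher and 13 lower (median −0.29 log2), and 9 were lower with an equal total. In cluster 1, 28 of 84 were higher and 33 lower (median −0.07), which turned to 37 higher and 19 lower with an equal total. In cluster 4, 3 of 5 were higher and 1 lower. Of the 27 members outside these clusters, 13 were higher and 10 lower. Differences between clusters were not tested.

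TraesMAC3A03G01315620 of cluster 1, on 3A, had scaled counts with a lowest value of 411, a median of 628 and a highest of 1031 in senescent libraries, against 71.001, 171 and 293 in mature libraries. The groups did not overlap. Its mean was 653 ± 146 in senescent and 169 ± 56.2 in mature leaves (SD, n = 48 each), a rise of 1.99 ± 0.079 log2 (SE; limma adjusted p = 2.40e-42). TraesMAC3A03G01493640, on 3A and outside the 4 clusters, had 166, 239 and 363 in senescent libraries, against 9.66, 58.4 and 117 in mature libraries, again without overlap. Its means were 239 ± 46.9 in senescent and 59.6 ± 22.6 in mature leaves (SD, n = 48 each), a rise of 2.05 ± 0.087 log2 (limma adjusted p = 6.03e-40).

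TraesMAC1D03G00557270 of cluster 1, on 1D, had scaled counts with a lowest value of 35.1, a median of 76.0 and a highest of 177 in senescent libraries, against 108, 386 and 1155 in mature libraries. The groups overlapped, since the lowest mature library, ZT63 replicate 1, fell among the senescent values. Its means were 81.8 ± 27.0 in senescent and 432 ± 219 in mature leaves (SD, n = 48 each), a difference of −2.27 ± 0.11 log2 (limma adjusted p = 1.45e-34). TraesMAC2D03G01212190 of cluster 1, on 2D, had 38.4, 68.3 and 122 in senescent libraries, against 80.5, 228 and 387 in mature libraries, also with an overlap. Its means were 69.5 ± 21.3 in senescent and 228 ± 78.8 in mature leaves (SD, n = 48 each), a difference of −1.66 ± 0.094 log2 (limma adjusted p = 1.69e-30). Both were lowest in mature ZT63 replicate 1 and highest in mature ZT45 replicate 2.

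**Figure D5:**
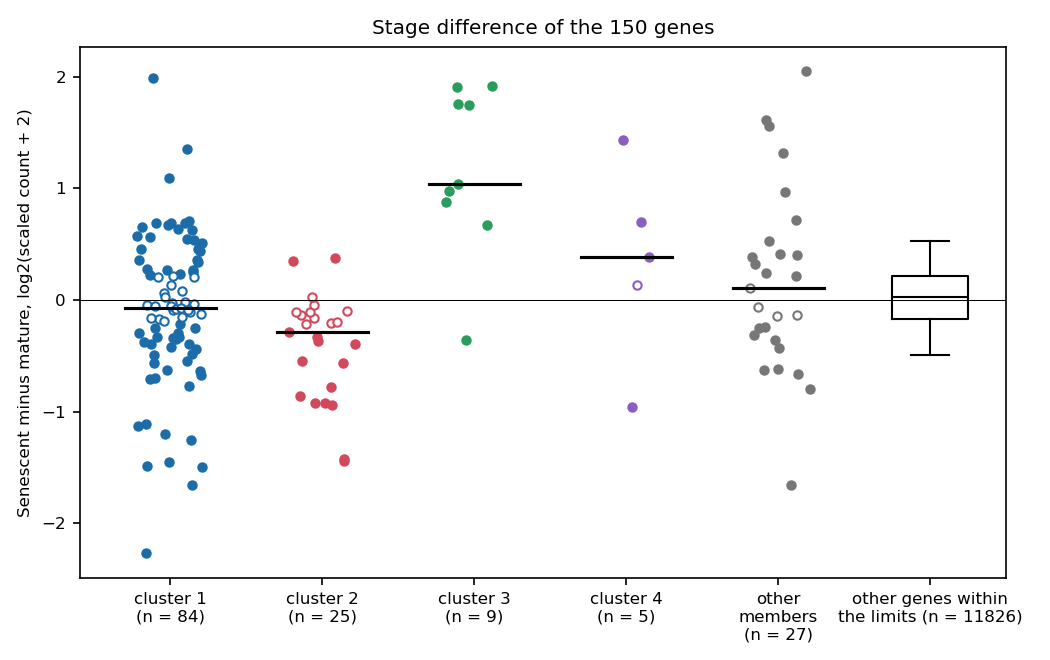
Difference between senescent and mature leaves (y axis, log2) of each member by cluster, filled where the limma adjusted p was under 0.05, with bars at the medians and a box (quartiles, whiskers from the 5th to the 95th percentile) of the 11826 other genes that met the limits. In cluster 3, 8 of 9 genes lie above 0, and in cluster 2, 13 of 25 were lower and 2 higher by the test.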

How the data were processed

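RNA was sequenced from 48 senescent and 48 mature libraries. Per the submitters' processing notes, bcl2fastq 2.17, STAR, Cufflinks and Cuffnorm were used; their settings and the genome build are not given in the sources used here. The deposited count values are a signal: read counts that the authors had scaled by library. Non-zero values up to 1000 reads were whole multiples (within 0.05 reads) of 1 number per library in 99.97% or more of genes, from which reads were estimated. The deposited FPKM values, also made by the authors, served for relative length and as an alternative. A second deposited table repeated the senescent libraries with 0 differing values. Per the labels' protocols, the leaves of a stage and time came from 4 plants.

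For each stage, a 24 h cosine, a sine and a slope were fitted to log2(scaled count + 2), and differences of the paired libraries were ranked, decomposed and clustered with numpy 2.4.6 and scipy 1.17.1. Fold changes on this scale understate changes of genes with low values. The stage test used limma 3.58.1 in R 4.3.3 for genes averaging 10 or more scaled counts, the same 24 h and slope terms for each stage, and an adjusted p under 0.05. It was tested on simulated data. The members, lists and tests were chosen with earlier results of these data known. Named genes were the 6 with the largest difference, the most correlated member of each of 4 clusters, the 2 with the smallest p in each stage direction, 2 on either side of the limit, and the 3 outside genes most like the first component. Alternatives changed the pseudocount, scaling, filter, unit, libraries or measure of difference.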

Additional observations from a re-analysis of the deposited data

How the results depend on the processing

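With libraries brought to an equal total, the list kept 85 of 150 genes, the median correlation between members was 0.48, 35 members were lower in senescent leaves, and over all tested genes 25604 were higher and 7639 lower. Chosen on the 24 senescent pairs, the list kept 70 genes, with a median correlation of 0.050 and 41.9% of the squares in 5 pairs. On the 24 mature pairs the first component held 52.4% and 5 pairs held 45.6%. With a mean of at least 200, the list shared 19 genes (all members at that level), the first component held 28.7% and the median correlation was 0.0046. Testing genes with a mean of at least 50 gave 8864 higher and 8633 lower over all genes. Without the 5 pairs that differed most, an alternative added after seeing the data, the list kept 126 genes, the first component held 25.9% and the next 5 pairs held 27.8%; 56 members were higher and 60 lower. The cause of these moves was not tested.

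Leaving out each pair in turn kept 139 to 150 genes, with 33.7% to 41.9% on the first component, a median correlation of 0.18 to 0.32 and 30.6% to 33.6% in 5 pairs. Without replicate 1 or without replicate 2, 44 to 49 members were higher and 45 to 53 lower in senescent leaves, with 12330 to 12479 higher and 12138 to 12522 lower over all genes. Cluster 1 was then 20 to 26 higher and 22 to 32 lower, cluster 2 was lower in 10 to 14 and cluster 3 higher in 8.

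The replicate block on the number gave 54 members higher and 58 lower, and a replicate block on time point and number 54 and 57. Same-numbered senescent and mature libraries had a median r of 0.10 between their deviations (21 of 48 over 0.1). Libraries of the same time with the other number had a median of 0.041 (18 of 48 over 0.1). The same number gave the higher r in 26 of 48. The labels give these libraries a shared number only, and whether they pair was not tested. Negative binomial count tests were not run because the deposited values are scaled. Depth limits the members with low values, since 1 read was worth 0.516 to 1.43 scaled counts.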

Other observations

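The 27 members outside the 4 larger clusters held further departures of single libraries, and the genes named here were chosen after their values were seen. TraesMAC2B03G00965790, with the largest difference among them (1.06 log2), had medians of 80.4 scaled counts in senescent and 54.2 in mature libraries. Its mature values reached from 13.1 in ZT59 replicate 2 to 264 in ZT91 replicate 1. TraesMAC7D03G04474740 had medians of 97.6 in senescent and 85.3 in mature libraries and its lowest value, 2.105, in mature ZT91 replicate 1. TraesMAC5B03G02866750 was lowest in the same library, at 4.21, with medians of 126 in senescent and 115 in mature libraries.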
